A study of Homo sapiens with 3 samples.

Results

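Interferon-induced and RNA-sensing genes were followed across 3 microarray profiles of A549 cells, a widely used epithelial line from a human lung cancer. The members were chosen by symbol from the platform's annotation. They were the genes whose symbol begins with IFI or IFIT and a digit, with OAS, IFITM, APOBEC3, GBP or PARP, or with IRF and a digit, together with 16 genes named singly such as IFIH1, RIGI, ISG15 and MAVS. This gave 46 of the 14884 genes with a named probe set. The symbols were read as beginnings, so the rule also took IRF2BP1, IRF2BP2 and IRF2BPL, which encode IRF2-binding proteins and a relative, PARPBP, which encodes a partner of PARP1, and the pseudogene IFITM4P. Of the OAS genes it found OASL alone. The APOBEC3 genes, MX1 and CMPK2 were not analysed here. All 3 groups were transfected with an siRNA by lipofection with Lipofectamine RNAiMAX and their RNA was taken after 48 h. The siNC group received a control siRNA, the siTAZ group one against TAZ and the siYAP group one against YAP. Each group had 1 array, so that no value has an error and no difference was tested. Untransfected cells were not analysed here, so an effect common to all 3 transfections would not show in the differences.

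The RNA helicases RIG-I (gene RIGI) and MDA5 (gene IFIH1) bind double-stranded RNA in the cytosol and signal through MAVS on mitochondria to the kinase TBK1 and the transcription factors IRF3 and IRF7, which switch on interferon genes. Secreted interferon acts through its receptors and JAK kinases on a transcription factor complex that includes IRF9. That complex binds the interferon-stimulated response element in the promoters of antiviral genes such as ISG15 and the IFIT genes. YAP and TAZ (genes YAP1 and WWTR1) are transcriptional co-activators at the end of the Hippo pathway and act mainly through TEAD factors.

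Each value is a level from RMA, the authors' array summary, read as log2, so that a difference of 0.58 is 1.5-fold. A gene was kept when its mean over the 3 arrays was at least 4.27, the median over all probe sets, which left 10768 genes and 35 of the 46 members. Each of the 35 lay at or above that level on all 3 arrays, and the other 11 members lay under it on all 3. The arrays had medians of 4.26 to 4.28. Of all kept genes, 41.1% had the same value on all 3 arrays. Equal values also recurred between genes, such as 5.8937 for IFITM3 and for SP110, another interferon-stimulated gene. Genes with differences shared values too. The IFIH1 value on the siYAP array, 5.4958, was that of IRF1 on all 3 arrays. The GBP3 value on the siNC array, 7.0923, was that of an IRF2BP2 probe set on all 3. An identical value is thus a tie in the deposited summary, and whether it means an unchanged RNA was not tested. YAP1 was at 8.45 on the siNC, 8.24 on the siTAZ and 6.87 on the siYAP array, and WWTR1 was at 6.50, 5.81 and 6.50, so the siYAP array kept 33.5% of its target's control level and the siTAZ array 62.2%. Of 12 markers of A549 and lung epithelium, 6 had a named probe set and all 6 were kept. On the siNC array KRT18 was at 11.56, EPCAM at 8.23, KRT7 at 6.51, KRT8 at 6.50, KRT19 at 6.445 and NKX2-1 at 4.61. Of 9 leukocyte markers 4 had a named probe set. CD14 and CD2 were kept, at 4.49 and 4.51 on the siNC array, and LYZ and NCAM1 were under the filter. Whether a level just above the filter shows expression was not tested. In cells profiled in bulk, a change in how many cells carry an RNA and a change in the amount per cell cannot be told apart.

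The promoters of 35 of the 46 members were found by gene identifier in the RefSeq promoter table (assembly GRCh38.p14), which holds 250 bases before and 50 after each annotated start. They were searched on both strands for the core of the interferon-stimulated response element, in which the letters GAAA stand in a pair with any 2 bases between them. The core was found in at least 1 promoter of 18 of the 35 members (51.4%) and of 1195 of all 27305 genes in the table (4.38%). The sequences below are shown for IFIH1, the kept member past 1.5-fold from the control, for RIGI, the other helicase sensor, and for ISG15. They are the 250 bases before the start of IFIH1 (chr2:162318685-162318934, minus strand), of RIGI (chr9:32526197-32526446, minus strand) and of ISG15 (chr1:1013247-1013496, plus strand), 5′ to 3′ on the strand of the gene. Capitals mark the matches of the core, which overlap in the upstream IFIH1 match and in ISG15.
IFIH1: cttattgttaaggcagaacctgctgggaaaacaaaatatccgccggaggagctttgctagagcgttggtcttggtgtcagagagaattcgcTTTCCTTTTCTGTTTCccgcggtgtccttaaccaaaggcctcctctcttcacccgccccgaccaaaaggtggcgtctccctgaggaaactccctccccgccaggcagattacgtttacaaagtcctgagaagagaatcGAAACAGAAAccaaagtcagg
RIGI: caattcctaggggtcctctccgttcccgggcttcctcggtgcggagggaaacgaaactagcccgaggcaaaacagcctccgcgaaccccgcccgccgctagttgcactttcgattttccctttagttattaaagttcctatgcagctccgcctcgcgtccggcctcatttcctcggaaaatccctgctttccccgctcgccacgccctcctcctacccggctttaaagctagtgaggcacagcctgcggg
ISG15: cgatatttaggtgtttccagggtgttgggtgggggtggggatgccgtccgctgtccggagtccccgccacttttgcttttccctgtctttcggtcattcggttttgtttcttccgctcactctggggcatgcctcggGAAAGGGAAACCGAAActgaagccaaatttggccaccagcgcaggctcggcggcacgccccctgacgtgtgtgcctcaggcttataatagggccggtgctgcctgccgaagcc
IFIH1 held 3 matches, at -159 to -150, at -153 to -144 and at -21 to -12 from the start (counted as 1), and ISG15 held 2, at -113 to -104 and at -107 to -98. RIGI had no match of these letters in this window. In GBP3, whose values are given below, TTTCAGTTTC lay at 3 to 12 bases after the start.

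The RNA sensors and their adaptor gave the difference of greatest size from the control among the kept members. IFIH1 was at 4.88 on the siNC, 5.56 on the siTAZ and 5.50 on the siYAP array. Both knockdown arrays were above the control and close to each other. The difference was 0.68 for siTAZ (1.61-fold higher) and 0.62 for siYAP (1.54-fold higher), and the 2 knockdown arrays differed by -0.065. It ranked 52 from the highest of the 10768 kept genes in the siTAZ comparison and 45 in the siYAP comparison. Both differences subtract the same siNC value, which is the lowest of the 3 and near the filter level of 4.27, so they do not support each other as separate measurements. RIGI, the other helicase sensor, lay on the other side of the control, at 7.39 on the siNC, 7.15 on the siTAZ and 7.14 on the siYAP array. Its differences were -0.25 in both comparisons (1.19-fold lower), and the knockdown arrays were within 0.0022 of each other. Such closeness is common here, as 53.9% of all kept genes were identical on the 2 knockdown arrays.

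The other genes of this group differed less from the control. MAVS, the adaptor, was at 8.47, 8.62 and 8.50 on the siNC, siTAZ and siYAP arrays, 0.14 higher for siTAZ and 0.029 higher for siYAP. EIF2AK2, which encodes PKR, a kinase that binds double-stranded RNA and halts translation, was at 9.13, 9.25 and 9.24, with differences of 0.13 and 0.11. OASL, which enhances RIG-I signalling, and DDX60, a helicase linked to it, each had 1 value on all 3 arrays, 5.61 and 4.83. Of the 6 genes of this group, 3 were above the control on both knockdown arrays (IFIH1, MAVS and EIF2AK2). RIGI was below it on both, and OASL and DDX60 were identical on all 3 arrays. Among all kept genes, 20.6% were above the control on both and 14.6% were below it on both. Both comparisons share the control array, and with 6 genes the count is no result about the group.

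Among the fibroblast and endothelial markers, LUM and PECAM1 were higher on both knockdown arrays, THY1 was lower on both, and DCN, VWF and KDR were identical. Of 6 fibroblast markers 3 had a named probe set. LUM was at 7.45, 8.14 and 8.10 on the siNC, siTAZ and siYAP arrays, THY1 was at 5.22, 5.06 and 5.06, and DCN, a defining fibroblast gene, was under the filter at 2.38 on all 3. Of 4 endothelial markers 3 had a named probe set. PECAM1 was under the filter at 3.60, 3.90 and 3.80, and VWF (4.42) and KDR (3.89) were identical on all 3 arrays. The part of these markers in the IFIH1 difference was not tested.

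**Figure D1:**
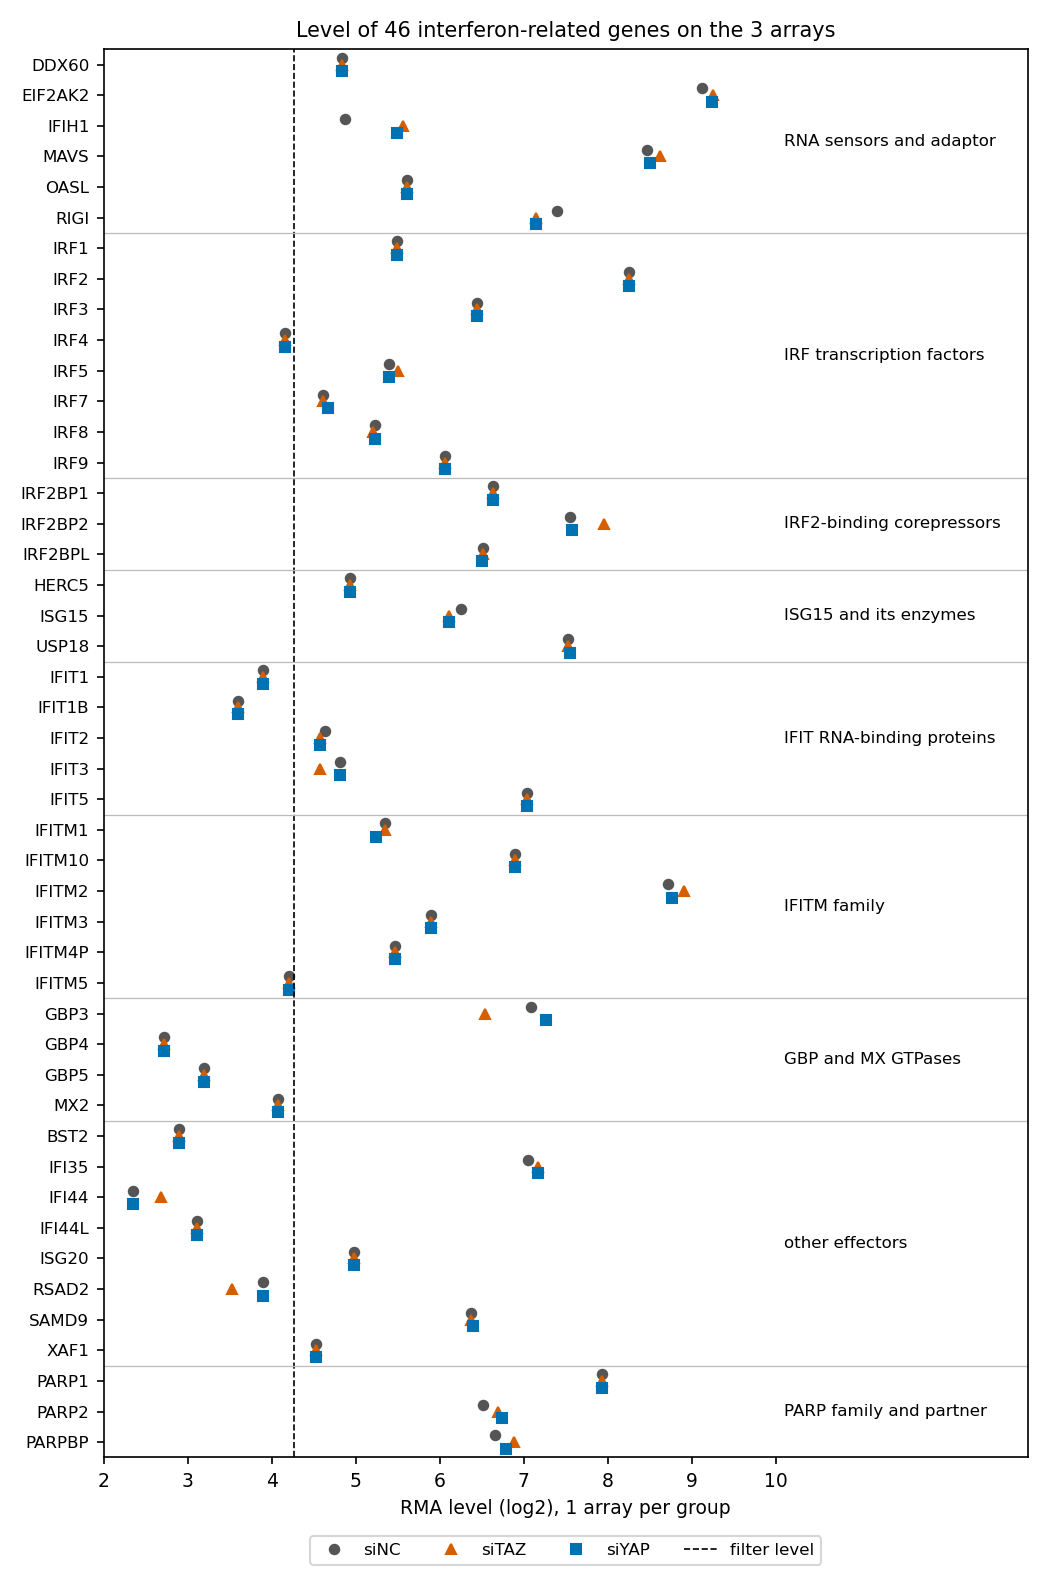
RMA level on a log2 scale (x axis) of the 46 members (rows, grouped by role) on the siNC (circles), siTAZ (triangles) and siYAP (squares) arrays, 1 array per group, with the filter level of 4.27 as a dashed line. The 3 symbols of a gene lie on 1 vertical line where its values were identical; IFIH1, RIGI, IRF2BP2, IFIT3 and GBP3 are kept genes with a visible gap, and 11 genes lie left of the dashed line.

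Among the interferon regulatory factors, IRF3 and IRF7 carry the signal to interferon genes and IRF9 to interferon-stimulated genes, as described above. IRF1, IRF2, IRF3 and IRF9 each had 1 value on all 3 arrays (5.50, 8.26, 6.44 and 6.07). IRF5 was at 5.40 on the siNC and siYAP arrays and 5.50 on the siTAZ array, and IRF8 was at 5.23 on those 2 arrays and 5.21 on the siTAZ array. IRF7 was at 4.61 on the siNC and siTAZ arrays and 4.66 on the siYAP array. IRF4, a lymphoid factor, was under the filter at 4.16 on all 3. The difference of greatest size from the control among the 7 kept factors was 0.11 (IRF5 for siTAZ), and 4 of the 7 were identical on all 3 arrays. This is no result about the family, since 41.1% of all kept genes were identical on all 3 and the 90th percentile of the size of difference over all kept genes was 0.27 for siTAZ and 0.22 for siYAP.

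The IRF2-binding proteins act as corepressors. IRF2BP2 was at 7.55 on the siNC, 7.96 on the siTAZ and 7.58 on the siYAP array, so that the siTAZ array stood apart, 0.40 above the control (1.32-fold). The siYAP array was 0.38 below the siTAZ array, a difference of -0.38. A second, dimmer IRF2BP2 probe set was at 7.09 on all 3 arrays, and with the mean of both the siTAZ difference was 0.20. IRF2BP1 had 1 value, 6.64, and IRF2BPL was at 6.52 on the siNC and siTAZ arrays and 6.51 on the siYAP array.

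ISG15, a ubiquitin-like protein that interferon induces strongly, was at 6.25 on the siNC array and at 6.11 on both knockdown arrays, a difference of -0.14 in each comparison (1.10-fold lower). HERC5, the ligase that attaches ISG15 to proteins, had 1 value, 4.94, on all 3 arrays. USP18, the protease that removes ISG15 and a brake on the interferon receptor, was at 7.52 on the siNC and siTAZ arrays and 7.55 on the siYAP array. The 3 genes of this system lay within 0.14 of the control on both knockdown arrays. This is no result about the system. The 90th percentile of the size of difference over all kept genes was 0.27 for siTAZ and 0.22 for siYAP.

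The IFIT proteins bind viral RNA. IFIT2 was at 4.64 on the siNC array and at 4.57 on both knockdown arrays. IFIT3 was at 4.81 on the siNC and siYAP arrays and at 4.58 on the siTAZ array, a difference of -0.23 (1.18-fold lower), close to the filter level on all 3. IFIT5 had 1 value, 7.04, and IFIT1 and IFIT1B were under the filter at 3.90 and 3.60 on all 3 arrays. No IFIT gene was above the control on either knockdown array. Of all kept genes, 29.7% were above it for siTAZ and 27.0% for siYAP. With 3 IFIT genes kept, this absence says nothing about the family.

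The IFITM proteins block virus entry at membranes. IFITM2 was at 8.72 on the siNC, 8.90 on the siTAZ and 8.77 on the siYAP array. IFITM1 was at 5.34 on the siNC and siTAZ arrays and at 5.24 on the siYAP array. IFITM3 (5.89) and IFITM10 (6.90) had identical values on all 3. The pseudogene IFITM4P had 6 probe sets, from 5.21 to 5.46, each identical on the 3 arrays, and IFITM5 was under the filter at 4.21. IFITM1, IFITM2 and IFITM3 are close in sequence, so the assignment of probes among them is uncertain.

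GBP3, an interferon-induced guanylate-binding GTPase, was the kept member with the widest gap between the knockdowns. It was at 7.09 on the siNC, 6.54 on the siTAZ and 7.26 on the siYAP array, so that the siTAZ array was low and the siYAP array slightly above the control. The differences from the control were -0.56 for siTAZ (1.47-fold lower, just under the 1.5-fold threshold) and 0.17 for siYAP. The siYAP array was 0.725 above the siTAZ array (1.65-fold), which ranked 32 from the highest of the 10768 kept genes in that comparison. This difference does not use the control array. GBP genes form a family of similar sequence, so the assignment of its probes is uncertain. GBP4 and GBP5 (2.71 and 3.20) and the GTPase gene MX2 (4.07) were under the filter and identical on all 3 arrays.

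Of the remaining effectors, IFI35, a partner of the interferon-induced protein NMI, was at 7.05 on the siNC array and 7.16 on both knockdown arrays. SAMD9, a restriction factor for poxviruses, was at 6.37 on the siNC and siTAZ arrays and 6.39 on the siYAP array. The exonuclease gene ISG20 (4.98) and XAF1, an antagonist of the apoptosis inhibitor XIAP (4.52), were identical on all 3. BST2, which tethers budding virions, and IFI44L were under the filter at 2.89 and 3.11 and identical on all 3. IFI44 was at 2.35, 2.68 and 2.35 and RSAD2, which encodes viperin, at 3.89, 3.52 and 3.89 on the siNC, siTAZ and siYAP arrays. These 2 were the members under the filter with any difference, in opposite directions and on the siTAZ array alone. How well these dim probe sets track their transcripts was not tested.

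The PARP enzymes that the rule found act mainly in DNA repair. PARP1 had 1 value, 7.93, on all 3 arrays. PARP2, its close relative, was at 6.52 on the siNC, 6.69 on the siTAZ and 6.74 on the siYAP array, with differences of 0.18 and 0.23. PARPBP, which restrains homologous recombination, was at 6.66, 6.88 and 6.79, with differences of 0.22 and 0.14. Both genes were thus above the control on both knockdown arrays by at most 1.17-fold.

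**Figure D2:**
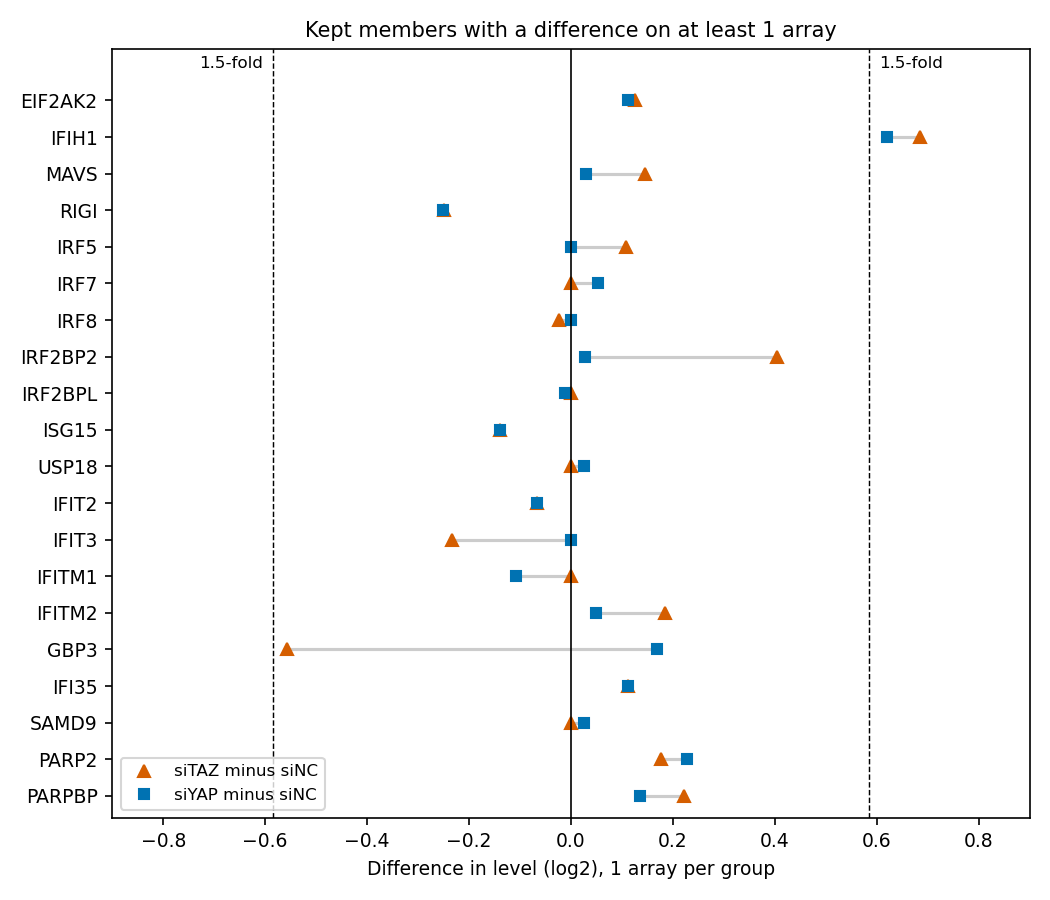
Difference in log2 level from the siNC array (x axis) for the 20 kept members whose values were not identical on all 3 arrays, for siTAZ (triangles) and siYAP (squares), 1 array per group, with dashed lines at 1.5-fold. IFIH1 lies past 1.5-fold for both (0.68 and 0.62), GBP3 spans the control (-0.56 and 0.17), and IRF2BP2 is apart for siTAZ (0.40).

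Counted together, few of the kept members passed 1.5-fold in any comparison. In siTAZ minus siNC, 1 of 35 members was past 1.5-fold upward (IFIH1, 2.86%) and 0 were past it downward, where the shares of all kept genes were 0.762% and 1.02%. In siYAP minus siNC, 1 of 35 was past it upward (again IFIH1) and 0 downward, where the shares of all kept genes were 0.520% and 0.381%. In siYAP minus siTAZ, 1 of 35 was past it upward (GBP3) and 0 downward, where the shares were 0.566% and 0.176%. At 2-fold, 0 of the 35 members were past the threshold in any comparison, where 0.316%, 0.195% and 0.0929% of all kept genes were. A count of 1 gene in 35 carries no information on the group. The median difference was 0 in all 3 comparisons, for the members as for all kept genes. From 51.4% to 57.1% of the members were identical in a comparison. Those ties set their median, which therefore cannot show a shift of the others.

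By any amount, 9 members were higher, 6 lower and 20 identical in siTAZ minus siNC (25.7%, 17.1% and 57.1%), where 29.7% of all kept genes were higher, 21.7% lower and 48.5% identical. In siYAP minus siNC, 12 were higher, 5 lower and 18 identical (34.3%, 14.3% and 51.4%), where the shares of all kept genes were 27.0%, 21.7% and 51.3%. In siYAP minus siTAZ, 7 were higher, 10 lower and 18 identical (20.0%, 28.6% and 51.4%), where the shares were 19.9%, 26.2% and 53.9%. The widest gap between the 2 sets of shares was that of identical values in siTAZ minus siNC.

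**Figure D3:**
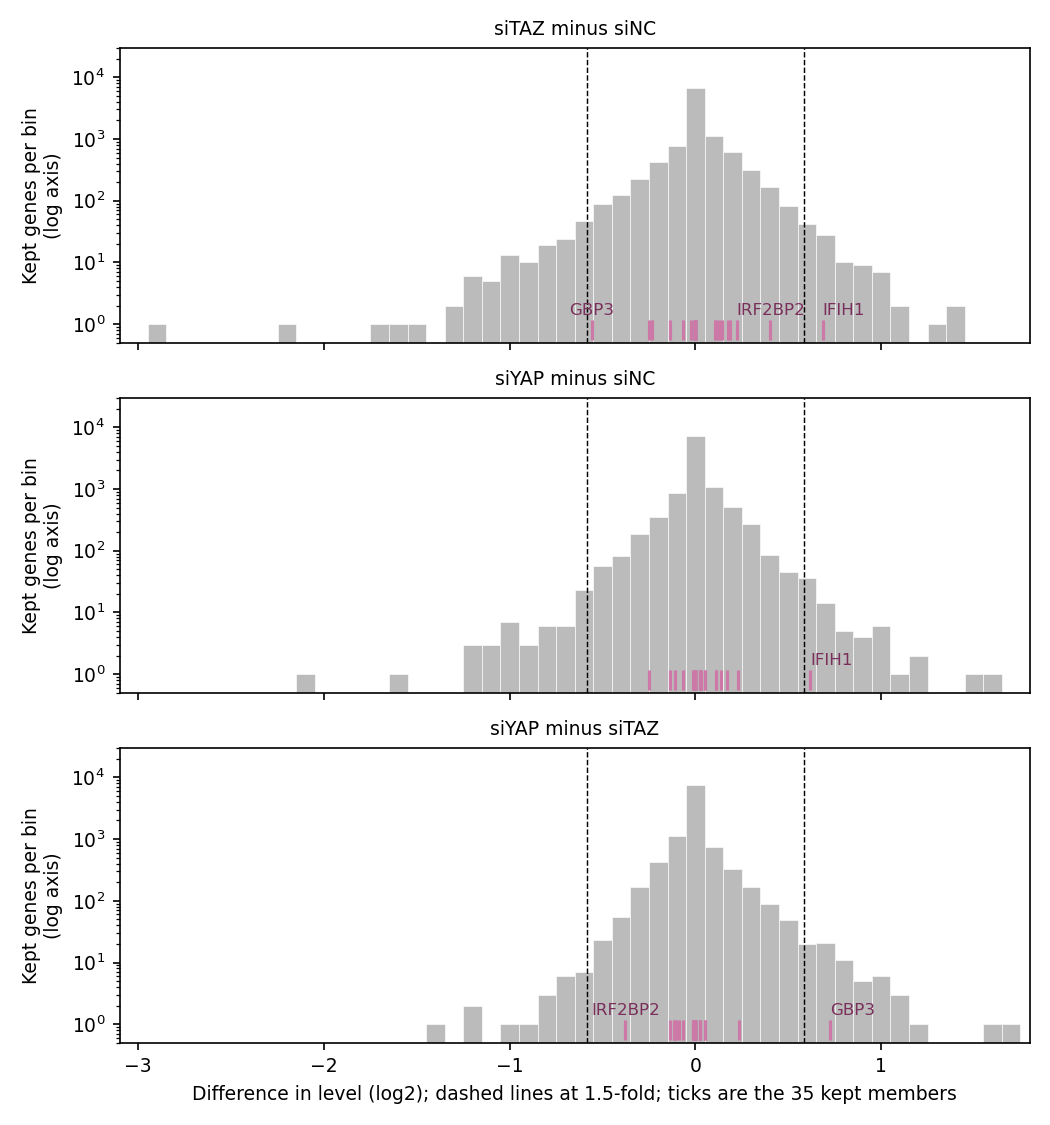
Number of kept genes per bin of 0.1 (y axis, log scale) against the difference in log2 level (x axis) for siTAZ minus siNC, siYAP minus siNC and siYAP minus siTAZ, with the 35 kept members as ticks at the base and dashed lines at 1.5-fold. Most ticks lie near 0 with most genes; IFIH1 (0.68 and 0.62) and GBP3 (0.725) lie past a dashed line.

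Which arrays shared a value was also compared. Of the 35 kept members, 15 (42.9%) had the same value on all 3 arrays to every deposited decimal, where 41.1% of all kept genes did. The siNC array alone stood apart for 3 (IFIT2, ISG15 and IFI35; 8.57% against 12.8%), the siTAZ array alone for 3 (IFIT3, IRF5 and IRF8; 8.57% against 10.2%) and the siYAP array alone for 5 (IFITM1, IRF7, IRF2BPL, USP18 and SAMD9; 14.3% against 7.46%). All 3 arrays differed for 9 (25.7% against 28.5%). Of the 12 members that differed from the control on both knockdown arrays, 8 were above it on both (22.9% of the 35 kept, against 20.6% of all kept genes), 3 were below it on both (IFIT2, ISG15 and RIGI; 8.57% against 14.6%), and GBP3 was below it for siTAZ and above it for siYAP (2.86% against 6.15%). The 2 comparisons share the control array. Whether a shared value means that the RNA did not differ was not tested.

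**Figure D4:**
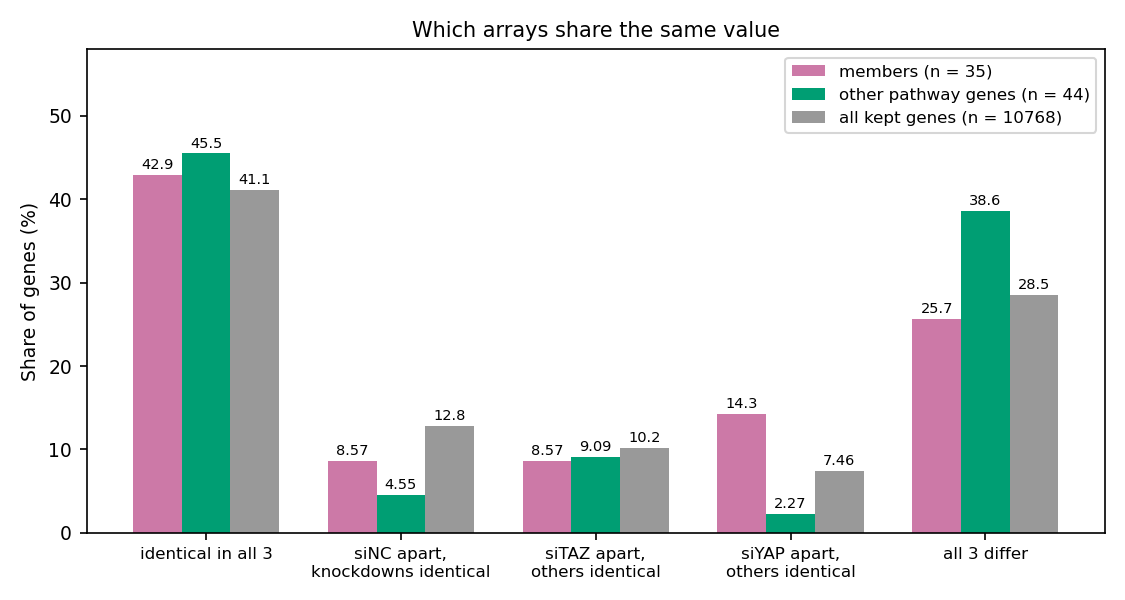
Share of genes in percent (y axis) by which of the 3 arrays had the same value (x axis), for the 35 kept members, 44 kept genes of other interferon pathway lists and all 10768 kept genes. The first set of bars, identical on all 3 arrays, stands at 42.9%, 45.5% and 41.1%.

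The genes with the response element core were set beside those without it. Of the 18 members with a core, 12 were kept, and 5 of these had the same value on all 3 arrays (DDX60, HERC5, IFIT5, IFITM3 and ISG20). In siTAZ minus siNC, 2 of the 12 were higher (IFIH1 and EIF2AK2), 3 lower (ISG15, IFIT3 and GBP3) and 7 identical. In siYAP minus siNC, 4 were higher, 2 lower and 6 identical, and IFIH1 was in both comparisons the gene past 1.5-fold. Among the 14 kept members with a promoter entry and no core, 6 were higher, 2 lower and 6 identical for siTAZ, and 5, 2 and 7 for siYAP, with none past 1.5-fold in either. Among the 9 kept members with no promoter entry, 1 was higher, 1 lower and 7 identical for siTAZ, and 3, 1 and 5 for siYAP. In siYAP minus siTAZ, 3 of the 12 with a core were higher, 3 lower and 6 identical, with GBP3 past 1.5-fold, against 2, 6 and 6 of the 14 without a core and 2, 1 and 6 of the 9 with no entry. With so few genes in each set, these counts can be read only beside the shares of all kept genes given above, and no difference between the sets was tested. The core of the TEAD site, GGAATG on either strand, was found in promoters of 7 of the 35 members (20.0%) and of 4567 of the 27305 genes (16.7%). Those 7 were IFI35, IFIT1, IFIT3, IRF5, IRF8, IRF9 and RSAD2, and neither IFIH1 nor GBP3 was among them. A match is a description of letters in this window and not a bound site.

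Other genes of the interferon pathway were taken from 4 lists with 102 genes, of which 52 had a named probe set and 44 were kept. In each of the 3 comparisons 0 of the 44 were at least 1.5-fold apart in either direction, and the median difference was 0. Identical values again hold that median. The shares of all kept genes were 1.78% for siTAZ minus siNC, 0.901% for siYAP minus siNC and 0.743% for siYAP minus siTAZ, also with a median of 0, so that under 1 call in 44 genes would match them and the count of 0 says nothing about the pathway. The 21 interferon genes listed, IFNB1 among them, and IFNAR1 and ADAR were not analysed here. TBK1, the kinase between MAVS and IRF3, had 1 value, 7.68, on all 3 arrays. The 13 kept genes of the sensing partners, such as TLR3 and CGAS, included 6 with identical values on all 3 arrays. The 7 kept genes of receptor signalling included 2, and the 24 kept other interferon-stimulated genes 12. Together 20 of the 44 (45.5%) were identical on all 3, against 41.1% of all kept genes. CXCL10, a chemokine that interferon induces strongly and that is named here after its values were seen, was under the filter at 2.32 on all 3 arrays.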

How the data were processed

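Levels were analysed for 3 arrays, 1 per group, made with 500 ng of total RNA by the labels. The authors deposited values summarised with RMA (background correction, quantile normalization and median polish), per the submitters' processing notes. The deposited values carry no stated scale, and their range was taken as that of log2 levels. Quantile normalization makes each value relative to its array. The genome build is not given in the sources used.

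Of the probe sets, 16098 carried 1 symbol, and all matched RefSeq identifiers (GRCh38.p14). The brightest probe set on average stood for its gene. Genes with a mean of at least 4.27 were kept. Of the 46 members, 44 had 1 probe set. A difference is that of 2 log2 values, and a call is 1.5-fold; no test was possible. The rule for which members the text names took every kept member; naming those of the 46 under the filter was decided after their values were seen. Members and lists were chosen with earlier results of these data known. Alternatives were no filter, a 75th percentile filter, a median shift, a loess trend (span 0.4), new quantile normalization, the mean of probe sets, a 2-fold call and strict families without IRF2BP1, IRF2BP2, IRF2BPL and PARPBP. The code was tested on simulated data and run in Python 3.11.15 with pandas 2.3.3 and statsmodels 0.14.6.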

Additional observations from a re-analysis of the deposited data

Results flagged for a closer look

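GBP3 was the one kept member that lay below the control on the siTAZ array and above it on the siYAP array. It was at -0.56 for siTAZ and 0.17 for siYAP relative to siNC, and 0.725 higher on the siYAP than on the siTAZ array (log2 scale). With 1 array per group the difference was not tested, and 6.15% of all kept genes had opposite signs in the 2 comparisons.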

How the results depend on the processing

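No paired analysis was possible because each group had 1 array, and leaving out an array was not possible either. At a 2-fold call, the counts of all kept genes were 34 (siTAZ minus siNC), 21 (siYAP minus siNC) and 10 (siYAP minus siTAZ) in place of 192, 97 and 80, and the counts of members were 0 in all 3 comparisons in place of 1. With the 75th percentile filter, 21 members were kept, without IFIH1, and 0 passed 1.5-fold in the comparisons with siNC. The counts of genes and members under the other alternatives stayed within 1.5 times the main count, and the member medians moved by less than 0.1. Those medians are held near 0 by the members with identical deposited values. Of 588 member differences recomputed, 586 moved by less than 0.1, none crossed 1.5-fold and the 2 that moved by more were those of IRF2BP2 with the mean of its probe sets (0.20 for siTAZ minus siNC and -0.19 for siYAP minus siTAZ). Most of the 588 could not move, so the count says little about stability. The filters leave a difference as it is, and the median shift was 0. The mean of probe sets can change only the 2 members with several. For the other members only the loess trend and new quantile normalization could alter a value. The IFIH1 difference ranged from 0.68 to 0.70 for siTAZ and from 0.62 to 0.63 for siYAP, and the GBP3 difference between the knockdowns from 0.725 to 0.73. The number of arrays limits the precision, and signal over background was not analysed here.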

Other observations

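From the other pathway lists, 3 genes named here after their values were seen, lay near the members with the largest differences. JAK1, a kinase of the interferon receptors, was at 9.69 on the siNC array and at 9.29 on both knockdown arrays, a difference of -0.41 in each comparison. DDX60L, a relative of DDX60, was at 6.75, 6.27 and 6.29 on the siNC, siTAZ and siYAP arrays, with differences of -0.48 and -0.46. SAMHD1, which hydrolyses deoxynucleotides and restricts retroviruses, was at 7.81, 8.36 and 7.87, a difference of 0.55 for siTAZ and 0.06 for siYAP, so that the siTAZ array stood apart. None of the 3 was past 1.5-fold, and no test was possible with 1 array per group.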
